A study of Mus musculus with 6 samples.

Results

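Cytochrome P450 genes were followed across the cell classes of subcutaneous white fat from obese mice. A gene was included when its symbol had the form of a numbered P450 (Cyp, family number, subfamily letter, member number) and when the 6 count matrices together held at least 100 of its UMIs, which are counted RNA molecules. The rule found 49 genes of the 32285 measured, out of 94 symbols of that form, of which 5 had no UMI. The members were thus selected on their summed UMI number over all libraries. Cyp26c1 with 105 UMIs and Cyp2c50 with 102 lay just inside the limit, and Cyp2b13 with 96 and Cyp2d10 with 94 just outside it. The series compared mice labelled GPSM1ΔTreg, in which Gpsm1 was deleted in regulatory T cells (CKO, 3 libraries), with GPSM1f/f mice that carry the floxed gene (FLOX, 3 libraries). All were on a high-fat diet, which the sample labels give as 12 weeks. Their protocol gives a range of diet lengths from an age of 7 weeks, so no exact age follows. Nuclei were isolated from the fat pad on a sucrose gradient, sorted by DNA stain and sequenced with the 10x 3′ assay, with 1 library per sample. The labels name neither the Cre driver nor the deleted exons.

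P450 enzymes are heme proteins that use molecular oxygen and electrons from a reductase to oxidise a substrate. Microsomal members take their electrons from P450 oxidoreductase and mitochondrial ones, such as the sterol hydroxylase encoded by Cyp27a1, from ferredoxin. Some clear drugs and other small molecules, some turn arachidonic acid and other fatty acids into epoxides or omega-hydroxylated products, and others act on sterols, vitamin D, retinoic acid or steroids. Liver is the best-known site of many Cyp2, Cyp3a and Cyp4a enzymes, and fat tissue is known for members expressed in its stromal, vascular and immune cells.

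After filtering, 56149 nuclei remained, 9372 to 9717 per CKO library and 9100 to 9306 per FLOX library. Kept UMIs numbered 33115565 to 35661879 in CKO libraries and 40745136 to 48474768 in FLOX libraries, so P450 genes with few UMIs were measured less precisely in CKO. No pair of libraries of a genotype was alike within counting noise, and any 2 libraries shared 24 to 44 barcodes. The makeup of the libraries differed. B-cell-like nuclei were 38.6%, 12.3% and 19.1% of the nuclei in CKO 1, 2 and 3, against 2.03%, 1.03% and 5.08% in FLOX 1, 2 and 3. T/NK-cell-like nuclei were 4.69% to 13.9% in CKO libraries, against 1.59% to 2.99% in FLOX libraries. Of the adipocyte-like nuclei, the state led by Pck1, the gene of a gluconeogenic and glyceroneogenic enzyme, held 50.3%, 60.8% and 56.8% in CKO, against 16.1%, 19.6% and 32.2% in FLOX. CKO 1 and FLOX 3 stood apart: CKO 1 had the highest B-cell-like share, and 2911 of the 3274 nuclei of an unnamed adipocyte-marker cluster led by Cst6 came from FLOX 3. Gpsm1 stood at 23.6, 26.9 and 23.4 CPM (UMIs per 1000000 UMIs of the class) in CKO T/NK-cell-like nuclei, against 35.7, 59.7 and 19.8 CPM in FLOX. The groups overlapped, and a 3′ tag outside the deleted exons would not show the deletion, so the labels were not checked by it. Each library was 1 replicate, and p-values measure only the spread between the 3 libraries of a genotype.

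The 49 genes fell into a few places. Over 50% of a gene's UMIs lay in adipocyte-like nuclei for 13 members, in ASPC-like nuclei (adipose stem and progenitor cells) for 5, and in macrophage-like nuclei for 1, the poorly characterised Cyp2ab1. Another 15 members lay mostly in a small cluster led by Slco1b2, Alb, Cps1, Mug1 and Cyp3a25, called the Alb-led cluster below. Cyp4x1, a brain P450 in the mouse, had 92 of its 106 UMIs in a cluster led by Ltf, and no single place held over 50% for the other 14. Members with adipocyte-like nuclei as their main place included Cyp4v3 (82.8% of its UMIs), Cyp2e1 (85.8%), Cyp4f39 (81.6%), Cyp2u1 (75.8%) and Cyp4f17 (68.5%). Those of ASPC-like nuclei were Cyp1b1 (80.7%), Cyp3a13 (74.3%), Cyp26b1 (72.0%), Cyp46a1 (64.7%) and Cyp39a1 (58.1%). These shares follow the number and size of nuclei in a class as well as the level per nucleus. They are descriptions, because 21 of the members were among the 3000 variable genes that made the clusters. Levels are given as CPM of the summed class and are compared within a gene, since nuclear UMIs of different genes depend on length and on unspliced RNA.

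**Figure D1:**
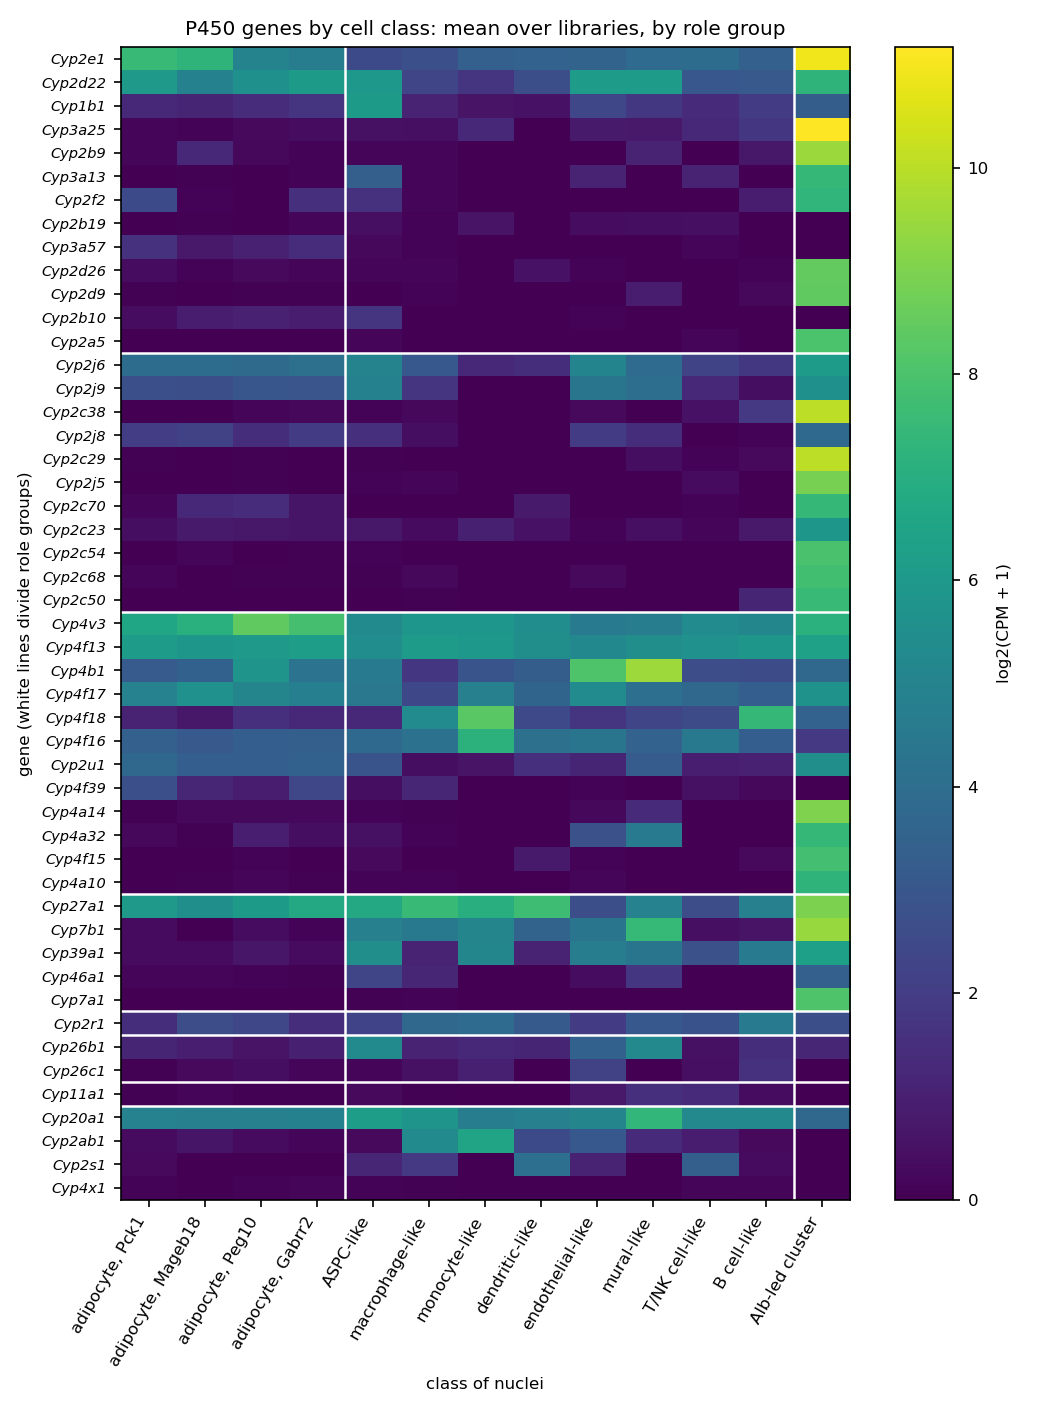
Levels of the 49 P450 genes (rows, in 8 role groups divided by white lines) in 4 adipocyte states, 8 other cell classes and the Alb-led cluster (columns), as log2(CPM + 1) of the mean over libraries. The column of the Alb-led cluster is bright for many genes that are dark elsewhere, Cyp4b1 is bright in mural-like and endothelial-like nuclei, and Cyp4v3 is brightest in the Peg10 adipocyte state.

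The Alb-led cluster held 107 nuclei, 0.191% of those kept, with 0, 17 and 10 nuclei in CKO 1, 2 and 3 and 0, 13 and 67 in FLOX 1, 2 and 3. Alb encodes the plasma protein albumin, Cps1 a urea cycle enzyme and Slco1b2 an uptake carrier for organic anions. No marker list of this work named the cluster, so it is called by its leading genes. It nevertheless held 4001 of the 4470 UMIs (89.5%) of the 15 members that lay mostly in it, with shares per gene of 73.0% for Cyp4a10 to 97.1% for Cyp2c29. They were Cyp3a25, Cyp2b9, Cyp2d9, Cyp2d26 and Cyp2a5 of drug and small-molecule oxidation, Cyp2c29, Cyp2c38, Cyp2c50, Cyp2c54, Cyp2c68 and Cyp2j5 of the epoxygenase families, Cyp4a10, Cyp4a14 and Cyp4f15 of omega hydroxylation, and Cyp7a1, the rate-limiting enzyme of bile acid synthesis. Genes of the Cyp2c, Cyp2d, Cyp3a and Cyp4a subfamilies have close copies in the mouse genome, and the handling of reads shared by such copies was not given, so single members of these subfamilies are uncertain.

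Values within the Alb-led cluster exist for CKO 2, CKO 3, FLOX 2 and FLOX 3. Cyp3a25 stood at 2656 and 2479 CPM in CKO 2 and 3, and at 2635 and 1427 CPM in FLOX 2 and 3. Cyp2c29 stood at 910 and 1167 CPM in CKO, and at 1601 and 514 CPM in FLOX. Cyp2c38 stood at 2433 and 1167 CPM in CKO, and at 392 and 236 CPM in FLOX. Cyp3a25 and Cyp2c29 overlapped between the genotypes, and Cyp2c38 was higher in both CKO libraries. Cyp7a1 stood at 462 and 292 CPM in CKO, and at 229 and 89.2 CPM in FLOX. With 2 libraries per genotype and as few as 10 nuclei in 1 of them, no test was made here. The 15 genes were picked for lying mostly in the cluster, so their whole-tissue sums had to follow its presence. Their summed level was 0.693, 47.4 and 21.3 CPM in CKO 1, 2 and 3, against 0.706, 19.0 and 28.6 CPM in FLOX 1, 2 and 3. CKO 1 and FLOX 1, which had no nuclei of the cluster, were low. All 15 genes passed the filter on low counts in whole tissue. Only 2 of them did once the cluster was left out, which follows from the same choice. In adipocyte-like nuclei the same 15 genes summed to 0.975, 1.41 and 1.59 CPM in CKO, against 0.648, 1.47 and 2.06 CPM in FLOX, which overlapped.

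**Figure D2:**
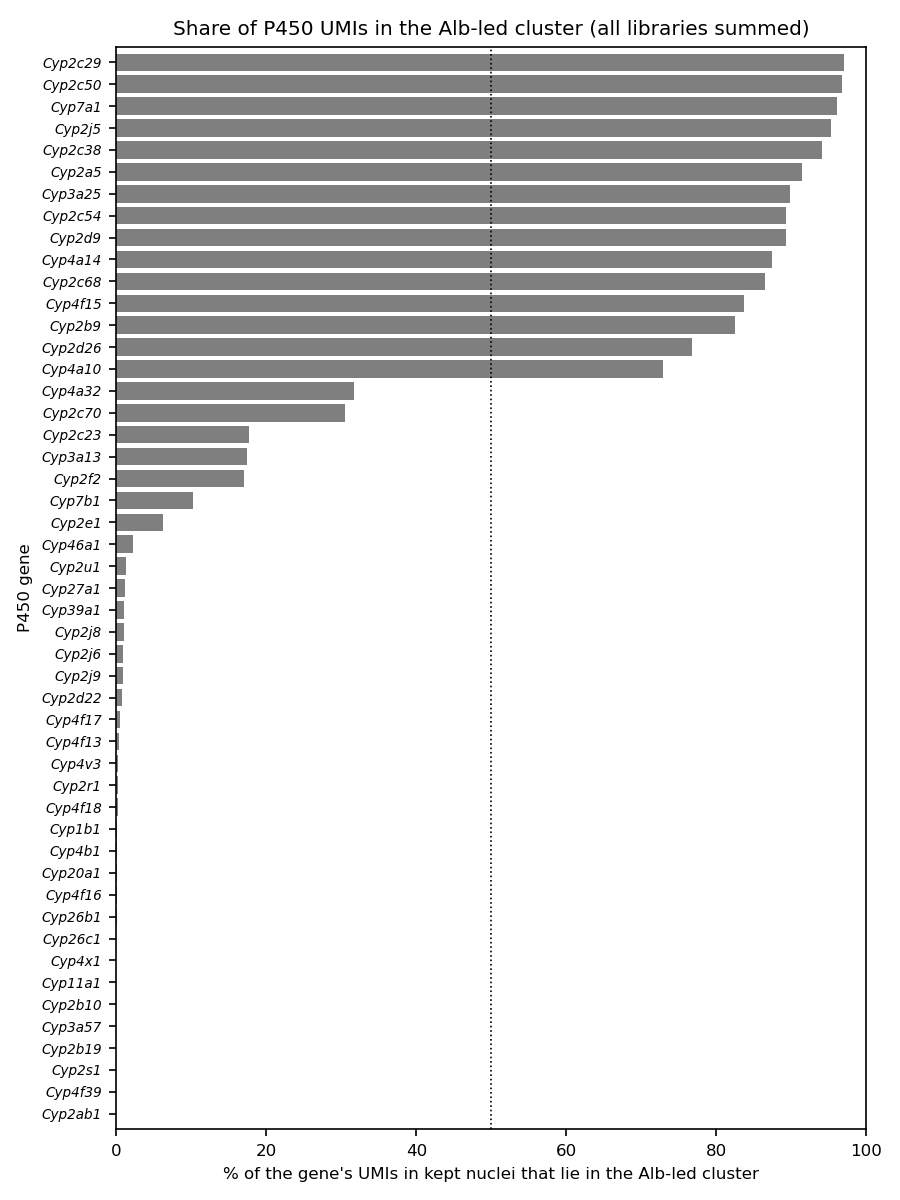
Share of each P450 gene's UMIs in kept nuclei (all 6 libraries summed, x axis in %) that lies in the Alb-led cluster, with genes ordered by that share and a dotted line at 50%. The 15 genes past the line reach 73.0% to 97.1%, and 21 of the 49 exceed 10%.

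Promoters of 3 members of the Alb-led cluster are shown because their letters can be set against those of members of adipocyte-like nuclei. RefSeq promoters (GRCm38.p6, from 250 bases before to 50 after the gene start, on the gene's strand) matched 38 of the 49 members by symbol. Each was searched on both strands for TATAAA (the TATA box), CAAAGTC (a core of sites bound by HNF4 receptors) and AGGTCA (a core of nuclear receptor sites). The end of an AGGTCA match can share bases with the start of a CAAAGTC match. Capitals mark the matches, and on the opposite strand AGGTCA reads TGACCT. Cyp2a5 (chr7:26835089-26835388, plus strand), whose product hydroxylates coumarin, held all 3 motifs, as did Cyp2c29 (chr19:39286835-39287134, plus strand), while Cyp2c38 (chr19:39463026-39463325, minus strand) held TATAAA alone.
Cyp2a5: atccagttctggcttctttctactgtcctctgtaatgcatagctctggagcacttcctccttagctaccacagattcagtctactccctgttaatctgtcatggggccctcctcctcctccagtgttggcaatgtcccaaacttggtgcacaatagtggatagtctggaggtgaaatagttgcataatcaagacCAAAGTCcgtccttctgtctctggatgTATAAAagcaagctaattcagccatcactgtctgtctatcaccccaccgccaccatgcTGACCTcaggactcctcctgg
Cyp2c29: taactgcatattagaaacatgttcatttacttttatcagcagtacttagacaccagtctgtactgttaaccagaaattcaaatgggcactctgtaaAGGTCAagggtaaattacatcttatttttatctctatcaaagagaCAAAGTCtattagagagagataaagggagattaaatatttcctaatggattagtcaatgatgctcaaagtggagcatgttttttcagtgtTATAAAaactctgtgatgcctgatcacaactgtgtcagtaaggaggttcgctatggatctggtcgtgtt
Cyp2c38: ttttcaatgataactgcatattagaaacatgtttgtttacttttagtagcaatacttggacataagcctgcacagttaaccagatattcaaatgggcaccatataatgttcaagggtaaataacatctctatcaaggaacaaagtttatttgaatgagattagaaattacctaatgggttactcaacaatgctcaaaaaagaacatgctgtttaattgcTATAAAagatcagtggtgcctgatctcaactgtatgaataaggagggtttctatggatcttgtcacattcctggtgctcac
The last pair are neighbours on chromosome 19, and 226 of 278 aligned promoter bases were identical (81.3%). TATAAA occurred in 6 of the 11 members of the Alb-led cluster with a promoter (54.5%), in 4 of the other 27 members (14.8%) and in 14.1% of all 26742 promoters. CAAAGTC occurred in 4 of the 11 (36.4%), 4 of the 27 (14.8%) and 4.4% of all promoters. AGGTCA occurred in 5 of the 11 (45.5%), 4 of the 27 (14.8%) and 16% of all promoters. These counts describe letters in a window and not bound sites.

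Among the 13 members of drug and small-molecule oxidation, Cyp2e1, which oxidises ethanol, acetone and fatty acids and is induced by fasting and diabetes in rodent liver, was the member that rose in CKO adipocyte-like nuclei. It stood at 153, 254 and 139 CPM in CKO, against 40.4, 37.0 and 66.2 CPM in FLOX. Every CKO library lay above every FLOX library, with means of 182 ± 62.8 CPM in CKO and 47.9 ± 15.98 CPM in FLOX (SD, n = 3 each). The log2 fold change was 1.86 with a standard error of 0.30 (edgeR quasi-likelihood test, Benjamini-Hochberg adjusted p = 0.0342). Cyp2e1 was the only 1 of 23 members tested in adipocyte-like nuclei that passed the threshold of 0.05, where 2.57% of all 15743 genes passed. The call rested on a few libraries: it held without CKO 1 (adjusted p = 0.0401) or FLOX 3 (0.0322) and was lost without CKO 2 (0.0776), CKO 3 (0.0857), FLOX 1 (0.116) or FLOX 2 (0.0866), with log2 fold changes of 1.55 to 2.17 throughout. Over 17 settings its adjusted p spanned 1.38e-09 to 0.116, and it was under 0.05 in 7. It was 0.103 with no filter on low counts and 0.112 in nuclei of 3000 to 8000 UMIs, where the 1 member called was Cyp4v3. Its promoter (chr7:140763569-140763868, plus strand) is shown as that of the member that rose, with 1 TATAAA match.
Cyp2e1: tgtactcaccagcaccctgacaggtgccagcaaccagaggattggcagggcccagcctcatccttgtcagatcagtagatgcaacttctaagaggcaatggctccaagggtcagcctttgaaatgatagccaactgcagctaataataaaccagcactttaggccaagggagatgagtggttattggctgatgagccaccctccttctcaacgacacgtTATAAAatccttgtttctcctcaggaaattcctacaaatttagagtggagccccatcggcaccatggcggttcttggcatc

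Cyp2e1 levels differed strongly among the adipocyte states, and the genotypes stood apart within 3 of them. In the state led by Mageb18 it stood at 205, 250 and 217 CPM in CKO, against 77.7, 77.5 and 97.2 CPM in FLOX. There Cyp2e1 rose in CKO by a log2 fold change of 1.38 ± 0.12 (SE), with an edgeR adjusted p of 0.00333. It was the only 1 of 15 members called in that state, where 0.122% of all genes were, and it stayed called in all 9 settings, each library left out in turn included (log2 fold change 1.28 to 1.49). In the Pck1 state it stood at 256, 413 and 222 CPM in CKO, against 70.7, 21.8 and 115 CPM in FLOX, a log2 fold change of 2.05 ± 0.62 (SE) with an adjusted p of 0.251. The FLOX libraries of this state were spread over a wide range, with FLOX 2 lowest, but none reached the lowest CKO library. In the Peg10 state it stood at 41.8, 56.9 and 43.3 CPM in CKO, against 19.9, 9.43 and 16.6 CPM in FLOX (log2 fold change 1.57, adjusted p = 0.0987). In the Gabrr2 state the groups overlapped, with 23.1, 49.6 and 29.8 CPM in CKO and 15.7, 11.1 and 26.6 CPM in FLOX (log2 fold change 0.97, adjusted p = 0.411). A test of whether the genotype difference itself varied among the states gave an adjusted p of 0.581 for Cyp2e1. The Pck1 and Mageb18 states had the higher Cyp2e1 levels, and the share of the Pck1 state was larger in CKO, and the part of that share in the value over all adipocyte-like nuclei was not tested.

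**Figure D3:**
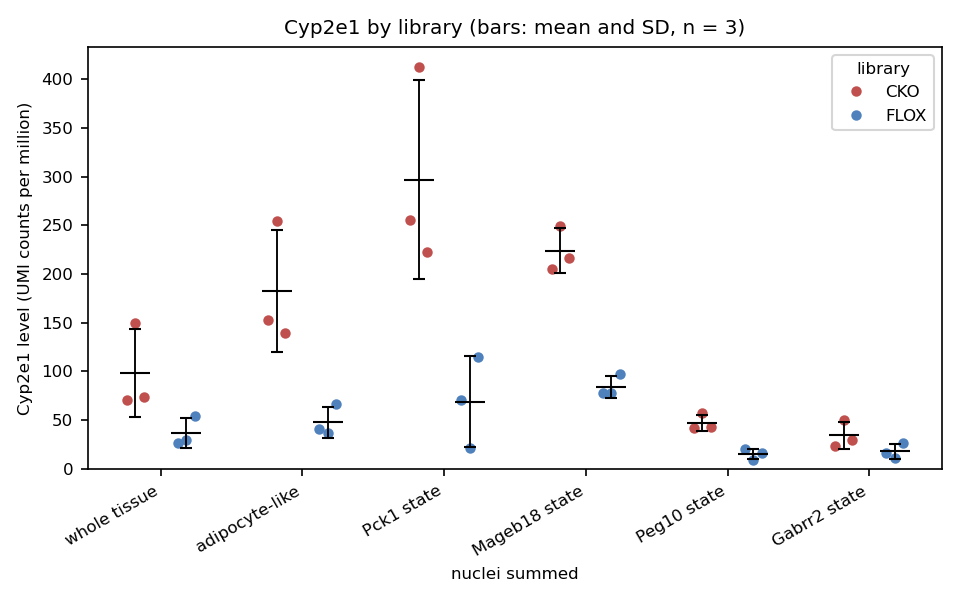
Cyp2e1 level (y axis, CPM) in each library, CKO left and FLOX right of each tick, for whole tissue, all adipocyte-like nuclei and the 4 adipocyte states; bars give the mean and SD of 3 libraries. In the Mageb18 state the CKO libraries lie at 205 to 250 CPM and the FLOX libraries at 77.5 to 97.2 CPM.

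Detection per nucleus gave the same order for Cyp2e1. When every nucleus was thinned to 2000 UMIs, 16.3% to 27.7% of CKO adipocyte-like nuclei had a Cyp2e1 UMI, against 3.76% to 10.3% in FLOX (20.8% ± 6.03 and 6.64% ± 3.31, SD, n = 3 each). Before thinning the shares were 27.2% to 39.9% in CKO and 9.81% to 20.2% in FLOX, at median depths of 5238 to 8609 and 9259 to 10200 UMIs per nucleus; thinning left out 212 CKO and 206 FLOX nuclei. T/NK-cell-like nuclei, in which the gene should be off, gave thinned shares of 2.03% to 2.31% in CKO and 0% to 4.82% in FLOX at median depths of 1391 to 1699 and 1320 to 1829 UMIs; thinning left 863 of these nuclei in CKO and 184 in FLOX. Endothelial-like nuclei gave 1.24% to 4.25% in CKO and 0.293% to 1.43% in FLOX at median depths of 1635 to 2179 and 1799 to 2519 UMIs. The shares in the Gabrr2 state were 3.24% to 5.49% in CKO and 1.64% to 4.98% in FLOX, which overlap the range of T/NK-cell-like nuclei in FLOX and that of endothelial-like nuclei in CKO. The shares in the Mageb18 state, 22.1% to 26.5% in CKO and 9.10% to 15.1% in FLOX, lay above both classes in all libraries. In the Peg10 state the FLOX shares, 1.08% to 3.57%, and that of CKO 1, 4.1%, lay within the range of T/NK-cell-like nuclei in FLOX. Those of CKO 2 and 3 lay above it. In the Pck1 state FLOX 2, at 2.21%, lay within that range, and all other libraries lay above it, at 11.1% or more. In the Alb-led cluster Cyp2e1 stood at 1956 and 2102 CPM in CKO 2 and 3, and at 2178 and 1443 CPM in FLOX 2 and 3. Alb itself stood at 1.04, 1.86 and 1.83 CPM in CKO adipocyte-like nuclei and at 0.612, 0.767 and 1.92 CPM in FLOX, against 1836 to 6988 CPM in that cluster. The part of free RNA from that cluster in the adipocyte-like values was not tested. Over the whole tissue Cyp2e1 stood at 70.3, 150 and 73.6 CPM in CKO, against 26.0, 29.1 and 54.0 CPM in FLOX, with no overlap and an adjusted p of 0.0944.

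In ASPC-like nuclei Cyp2e1 was low, with 3.64, 9.82 and 4.76 CPM in CKO and 3.87, 2.85 and 3.24 CPM in FLOX (log2 fold change 0.88, adjusted p = 0.421). The groups overlapped there. A direct test of the genotype difference in ASPC-like against adipocyte-like nuclei gave a log2 difference of -1.11 with an adjusted p of 0.0667, which passed the threshold without FLOX 3. None of 26 members passed that test, where 1.27% of all genes did. An unadjusted p under 0.05 was found for 3 members and for 14.9% of all genes.

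The other members of this group showed smaller or less certain differences. Cyp2d22 stood at 41.7, 52.7 and 101 CPM in CKO adipocyte-like nuclei, against 43.7, 37.7 and 35.6 CPM in FLOX, with CKO 3 alone far above the rest (log2 fold change 0.67, adjusted p = 0.250). In ASPC-like nuclei it stood at 58.4, 66.1 and 84.9 CPM in CKO, against 54.3, 57.9 and 45.7 CPM in FLOX, with an adjusted p of 0.349. Cyp2d22 was at similar levels in endothelial-like (59.3 to 79.3 CPM over the 6 libraries) and mural-like nuclei (46.3 to 120 CPM) and at 2.15 to 5.81 CPM in macrophage-like nuclei. Cyp1b1, which hydroxylates estrogens and polycyclic hydrocarbons and is known from mesenchymal cells, stood at 52.0, 66.6 and 77.9 CPM in CKO ASPC-like nuclei, against 62.9, 80.4 and 58.5 CPM in FLOX. These overlapped (log2 fold change -0.05, adjusted p = 0.959), and adipocyte-like nuclei had 0.905 to 2.51 CPM of Cyp1b1. Cyp2f2, a P450 of naphthalene oxidation in the mouse airway, had the largest fold change among members not called in adipocyte-like nuclei. It stood at 1.25, 4.97 and 4.16 CPM in CKO, against 1.30, 0.512 and 0.327 CPM in FLOX (log2 fold change 2.19 ± 0.62, SE, adjusted p = 0.0954). CKO 1 lay within the FLOX range, and the gene had 233 UMIs in adipocyte-like nuclei over all libraries. In ASPC-like nuclei Cyp2f2 stood at 3.00, 3.76 and 2.21 CPM in CKO, against 1.33, 1.22 and 0.432 CPM in FLOX, with no overlap and an adjusted p of 0.215. Cyp3a13, a Cyp3a member, stood at 12.6, 10.1 and 10.7 CPM in CKO ASPC-like nuclei, against 6.27, 6.25 and 9.93 CPM in FLOX (log2 fold change 0.60, adjusted p = 0.343). Cyp2b10 stood at 0.209 to 1.41 CPM in the 6 sums of adipocyte-like and 1.08 to 3.26 CPM in those of ASPC-like nuclei, and Cyp3a57 at 0.927 to 1.86 CPM in adipocyte-like nuclei. Cyp2b19, known from skin keratinocytes in the mouse, had 293 of its 301 UMIs in FLOX 1, and 45 of the 301 in kept nuclei.

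Of the 11 members of the Cyp2c and Cyp2j families, which make epoxides of arachidonic acid, 6 lay mostly in the Alb-led cluster. Cyp2j6 stood at 30.2, 32.4 and 30.3 CPM in CKO ASPC-like nuclei, against 33.5, 30.2 and 30.6 CPM in FLOX, and at 14.1 to 15.4 CPM in all 6 sums of adipocyte-like nuclei. The genotypes overlapped in both classes (adjusted p = 0.952 and 0.701). Cyp2j9 stood at 28.0, 33.2 and 29.1 CPM in CKO ASPC-like nuclei, against 27.6, 28.1 and 28.1 CPM in FLOX (adjusted p = 0.806). Cyp2j8 was mostly in adipocyte-like nuclei, at 2.26 to 3.48 CPM in CKO and 2.12 to 3.46 CPM in FLOX. Cyp2c70, which makes muricholic acid in mouse liver, stood at 0.696, 0.621 and 0.550 CPM in CKO adipocyte-like nuclei, against 1.55, 0.799 and 1.36 CPM in FLOX. The groups of Cyp2c70 did not overlap, but the values rest on few UMIs and the adjusted p was 0.135 (log2 fold change -1.05 ± 0.36, SE). Cyp2c23 stood at 0.550 to 0.627 CPM in CKO adipocyte-like nuclei and 0.421 to 0.756 CPM in FLOX. Cyp2c38 had the largest fold change among members not called in whole tissue, with 0.0603, 10.3 and 2.89 CPM in CKO, against 0.0831, 0.928 and 1.28 CPM in FLOX (log2 fold change 2.44 ± 1.43, SE, adjusted p = 0.319). Of its UMIs 94.1% lay in the Alb-led cluster, whose nuclei were absent from CKO 1 and FLOX 1.

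Among the 12 members of fatty acid and eicosanoid omega hydroxylation, Cyp4v3, whose human counterpart CYP4V2 hydroxylates medium-chain and polyunsaturated fatty acids, had 30895 UMIs in kept nuclei, the highest number of any member (not corrected for length). In whole tissue it stood at 102, 102 and 99.1 CPM in CKO, against 150, 152 and 149 CPM in FLOX. The libraries of each genotype lay close together and the groups far apart. Cyp4v3 fell in CKO by a log2 fold change of -0.66 ± 0.057 (SE; edgeR adjusted p = 0.0390) and was the only 1 of 47 members tested in whole tissue that was called, where 0.0415% of all 19295 genes were (8 genes). Its adjusted p was 0.00833 without CKO 2 and between 0.104 and 0.196 when any other library was left out, with log2 fold changes of -0.68 to -0.65. It was 0.0601 when libraries were scaled by their totals alone. In whole tissue, fewer nuclei of a type and less RNA per nucleus cannot be told apart, and the B-cell-like share given above was higher in every CKO library; its part in this value was not tested.

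Within classes the Cyp4v3 difference was smaller. In adipocyte-like nuclei it stood at 188, 152 and 168 CPM in CKO, against 224, 207 and 222 CPM in FLOX, with no overlap, a log2 fold change of -0.44 ± 0.092 (SE) and an adjusted p of 0.0504, which missed the threshold. It was called there with DESeq2, with no filter on low counts, in nuclei of 3000 to 8000 UMIs and without CKO 1. The same held with the replicate number as a block. Its level differed widely among states, with means of 96.3 CPM in the Pck1, 134 in the Mageb18, 348 in the Peg10 and 236 in the Gabrr2 state. In the Pck1 state it stood at 89.8, 81.7 and 70.5 CPM in CKO, against 101, 125 and 111 CPM in FLOX (log2 fold change -0.51, adjusted p = 0.0940). In the other states the genotypes overlapped, as in the Peg10 state with 341, 326 and 332 CPM in CKO and 329, 352 and 407 CPM in FLOX. The Pck1 state, with the lowest Cyp4v3 level, was 50.3% to 60.8% of CKO and 16.1% to 32.2% of FLOX adipocyte-like nuclei, and its part in the adipocyte-like value was not tested. The test of a difference among the states gave an adjusted p of 0.185 for Cyp4v3. Macrophage-like nuclei had 43.0, 56.6 and 52.1 CPM of Cyp4v3 in CKO, against 70.2, 60.8 and 59.6 CPM in FLOX (log2 fold change -0.31, adjusted p = 0.245), and ASPC-like nuclei had 34.7 to 44.5 CPM in CKO and 37.1 to 42.2 CPM in FLOX. After thinning to 2000 UMIs, 18.8% to 26.8% of CKO and 29.5% to 30.5% of FLOX adipocyte-like nuclei had a Cyp4v3 UMI; T/NK-cell-like nuclei gave 4.41% to 6.59% and 5.71% to 6.45%. Cyp4v3 lies on chromosome 8 from 45304944 to 45333216 on the minus strand (mm10). Its promoter (chr8:45333114-45333413) is shown beside that of Cyp2e1 because these genes were called in opposite directions in different sums; it held none of the 3 motifs.
Cyp4v3: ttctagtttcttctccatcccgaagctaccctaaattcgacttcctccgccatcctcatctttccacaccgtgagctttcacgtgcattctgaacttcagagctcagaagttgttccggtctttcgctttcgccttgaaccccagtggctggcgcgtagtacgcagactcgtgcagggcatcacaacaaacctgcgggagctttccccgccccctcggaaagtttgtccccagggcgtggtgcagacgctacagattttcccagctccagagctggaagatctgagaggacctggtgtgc

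**Figure D4:**
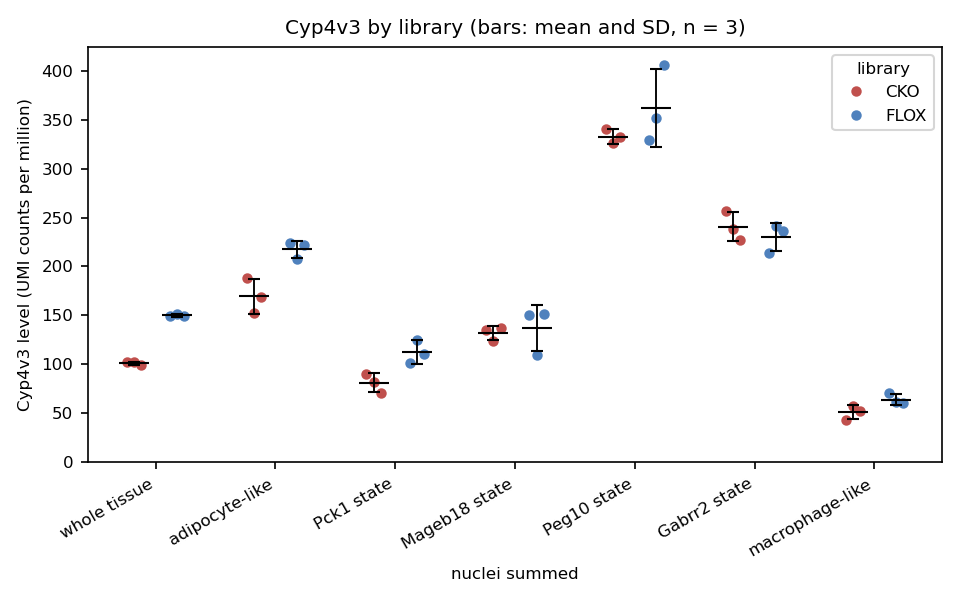
Cyp4v3 level (y axis, CPM) in each library, CKO left and FLOX right of each tick, for whole tissue, adipocyte-like nuclei, the 4 adipocyte states and macrophage-like nuclei; bars give the mean and SD of 3 libraries. The genotypes are farthest apart relative to their spread in whole tissue (99.1 to 102 CPM in CKO, 149 to 152 CPM in FLOX) and overlap in the Mageb18, Peg10 and Gabrr2 states.

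Over 12 points, the 4 adipocyte states and 8 other classes with all libraries summed, the genes whose log2(CPM + 1) followed Cyp4v3 most closely were Fbxl20 (Pearson r = 0.956), Zfp874a (0.940), Klkb1 (0.940), G6pdx (0.936) and Oxsm (0.934), of 12688 genes with at least 1000 UMIs. The points share libraries and clusters, so r is a description. All 5 were highest in adipocyte states, and Klkb1 stood at 51.1 CPM in the Peg10 and 13.4 CPM in the Pck1 state.

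Cyp4b1, which omega-hydroxylates fatty acids and activates some furans and aromatic amines, had its highest levels among the tested classes in mural-like and endothelial-like nuclei. By UMI number it was spread wider. Adipocyte-like nuclei held 34.2% of its UMIs, endothelial-like 29.5%, mural-like 16.2% and ASPC-like nuclei 10.2%. Mural-like nuclei had 1026, 821 and 566 CPM in CKO, against 740, 704 and 513 CPM in FLOX. Endothelial-like nuclei had 300, 223 and 236 CPM in CKO, against 253, 305 and 297 CPM in FLOX. The genotypes overlapped in both of these classes. Cyp4a32 of the Cyp4a family also stood higher in mural-like nuclei (14.2 to 28.1 CPM in CKO, 13.9 to 37.0 CPM in FLOX) than in endothelial-like nuclei (2.79 to 7.59 CPM in CKO, 4.98 to 7.94 CPM in FLOX), with overlap of the genotypes. In adipocytes Cyp4b1 was highest in the Peg10 state, at 54.6 CPM on average, against 8.27 to 17.8 CPM in the other states. In the Gabrr2 state Cyp4b1 stood at 7.56, 10.2 and 17.7 CPM in CKO, against 18.5, 30.5 and 22.5 CPM in FLOX (log2 fold change -0.97 ± 0.29, SE, adjusted p = 0.218). In ASPC-like nuclei it stood at 17.5, 19.1 and 21.4 CPM in CKO, against 31.1, 22.8 and 27.0 CPM in FLOX (log2 fold change -0.48 ± 0.15, SE, adjusted p = 0.248). In both of these every CKO library lay below every FLOX library, while over all adipocyte-like nuclei the groups overlapped (log2 fold change -0.64, adjusted p = 0.268). Over the whole tissue Cyp4b1 stood at 23.1, 21.7 and 28.4 CPM in CKO, against 42.8, 35.9 and 49.6 CPM in FLOX, with no overlap but an adjusted p of 0.0598 (log2 fold change -0.90 ± 0.15, SE). Endothelial-like nuclei were 2.83%, 6.70% and 4.13% of nuclei in CKO 1, 2 and 3, against 10.7%, 9.68% and 8.48% in FLOX 1, 2 and 3; the part of these shares and of the levels within classes in the value was not tested. In macrophage-like nuclei Cyp4b1 was low, at 2.15, 1.85 and 0.639 CPM in CKO, against 2.97, 2.72 and 3.79 CPM in FLOX (log2 fold change -1.01, adjusted p = 0.327).

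The Cyp4f genes divided by cell type. Cyp4f18, which inactivates leukotriene B4 in mouse leukocytes, stood at 172, 178 and 177 CPM in CKO B-cell-like nuclei, against 161, 170 and 181 CPM in FLOX, and at 259 to 410 CPM in CKO and 279 to 330 CPM in FLOX monocyte-like nuclei. The genotypes overlapped in both of these classes. In macrophage-like nuclei, which held 25.4% of its UMIs, Cyp4f18 stood at 43.4, 44.4 and 55.9 CPM in CKO, against 32.4, 31.4 and 39.1 CPM in FLOX. Every CKO library lay above every FLOX library there (log2 fold change 0.51 ± 0.14, SE, adjusted p = 0.109), and the gene was called with no filter on low counts. In adipocyte-like nuclei the groups did not overlap either, at 1.41 to 1.81 CPM in CKO and 0.648 to 0.935 CPM in FLOX (log2 fold change 0.92, adjusted p = 0.101). Over the whole tissue it stood at 36.4, 16.8 and 29.4 CPM in CKO, against 8.99, 6.70 and 13.4 CPM in FLOX (log2 fold change 1.43, adjusted p = 0.0707). The libraries stood in the same order as in the B-cell-like share, with CKO 1 highest and FLOX 2 lowest; the part of that share and of the levels within classes in the whole-tissue value was not tested. Cyp4f13 stood at 71.1, 70.3 and 69.1 CPM in CKO adipocyte-like nuclei, against 62.7, 55.4 and 64.1 CPM in FLOX, with no overlap (log2 fold change 0.13, adjusted p = 0.358). The groups did not overlap in the Mageb18 and Gabrr2 states either (adjusted p = 0.359 and 0.434), and they overlapped in macrophage-like nuclei, at 62.1 to 77.7 CPM in CKO and 66.9 to 74.2 CPM in FLOX. In T/NK-cell-like nuclei it stood at 52.0, 64.2 and 60.4 CPM in CKO, against 46.8, 23.0 and 44.6 CPM in FLOX (log2 fold change 0.52, adjusted p = 0.283). Cyp4f17 stood at 41.9, 38.2 and 33.3 CPM in CKO adipocyte-like nuclei, against 34.2, 29.0 and 34.2 CPM in FLOX (adjusted p = 0.462), and at 33.6 to 54.8 CPM in endothelial-like nuclei. Cyp2u1, a P450 of long-chain fatty acids, stood at 13.9, 10.6 and 10.3 CPM in CKO adipocyte-like nuclei, against 8.89, 9.02 and 9.72 CPM in FLOX, with no overlap and an adjusted p of 0.318. Cyp4x1, placed above in the Ltf-led cluster, had the second largest fold change among members not called in whole tissue (log2 fold change 1.65 ± 1.23, SE, adjusted p = 0.430).

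Cyp4f16 had 41.7% of its UMIs in adipocyte-like and 17.2% in ASPC-like nuclei. It was the only 1 of 4 members tested in T/NK-cell-like nuclei that was called there, where 6.16% of all genes were. It stood at 12.4, 16.4 and 9.73 CPM in CKO, against 40.1, 27.6 and 24.8 CPM in FLOX. Every CKO library lay below every FLOX library, and Cyp4f16 fell by a log2 fold change of -1.34 ± 0.38 (SE; edgeR adjusted p = 0.0424), on 91 UMIs in all. The call held in 3 of 8 settings, with adjusted p from 0.0402 without FLOX 3 to 0.322 without FLOX 1, and was also lost without CKO 1, CKO 2, CKO 3 or FLOX 2. Markers of other cells in this class moved with it: the 6 NK markers summed to 452, 1124 and 499 CPM in CKO, against 2981, 3330 and 1105 CPM in FLOX, with CKO 2 just above FLOX 3. The 6 monocyte markers summed to 219 to 364 CPM in CKO, against 446 to 700 CPM in FLOX. This sum does not tell monocytes from NK cells. At Leiden resolution 2 and in the clustering without the P450 genes, a cluster with all 6 NK markers also reached the naming limit for the monocyte list. Cyp4f16 was higher in monocyte-like nuclei, at 294, 141 and 78.7 CPM in CKO and 117, 106 and 115 CPM in FLOX. The part of these cells in the difference was not tested. In macrophage-like nuclei, which held 15.6% of the Cyp4f16 UMIs against 3.29% in T/NK-cell-like nuclei, it stood at 24.5, 19.6 and 15.98 CPM in CKO, against 13.4, 14.8 and 13.1 CPM in FLOX. Every CKO library lay above every FLOX library there (log2 fold change 0.53 ± 0.18, SE, adjusted p = 0.184). Endothelial-like nuclei had means of 20.2 CPM in CKO and 17.9 CPM in FLOX. The genotypes overlapped in adipocyte-like, ASPC-like and endothelial-like nuclei (edgeR adjusted p = 0.615, 0.996 and 0.939).

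Among the 5 sterol-oxidising members, Cyp27a1, the mitochondrial sterol hydroxylase of the acidic bile acid pathway, was present in macrophage-like, ASPC-like and adipocyte-like nuclei. Macrophage-like nuclei had 201, 197 and 188 CPM in CKO, against 162, 195 and 168 CPM in FLOX. ASPC-like nuclei had 126, 122 and 92.6 CPM in CKO, against 85.6, 113 and 98.0 CPM in FLOX. Adipocyte-like nuclei had 85.0, 60.9 and 58.8 CPM in CKO, against 67.8, 65.9 and 61.8 CPM in FLOX. The genotypes overlapped in each class, and over all adipocyte-like nuclei the log2 fold change was -0.01 (adjusted p = 0.966). Dendritic-like nuclei had 188, 218 and 162 CPM in CKO, against 383, 143 and 144 CPM in FLOX, where FLOX 1 alone set the sign of the difference (log2 fold change -0.19, adjusted p = 0.904; without FLOX 1, 0.44). T/NK-cell-like nuclei had 2.80 to 8.91 CPM over the 6 libraries. Cyp27a1 lies on chromosome 1 from 74713574 to 74737892 on the plus strand (mm10).

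The genotype difference of Cyp27a1 and of Cyp4f39, a Cyp4f gene known from the skin barrier in mouse and, as CYP4F22, in human, was not the same in all adipocyte states. These were the 2 of 19 members that passed the test of genotype by state, where 0.733% of all 13921 genes did. In the Mageb18 state Cyp27a1 stood at 62.2, 47.6 and 55.3 CPM in CKO, against 43.4, 34.2 and 37.5 CPM in FLOX. In the Pck1 state it stood at 65.0, 50.8 and 43.1 CPM in CKO, against 85.6, 71.9 and 60.4 CPM in FLOX. Its log2 fold changes were 0.48 ± 0.13 (SE) in the Mageb18, -0.48 ± 0.16 in the Pck1, 0.04 in the Peg10 and 0.14 in the Gabrr2 state, with a joint edgeR adjusted p of 0.0369. None of the fold changes in a single state of Cyp27a1 passed the threshold (adjusted p of 0.208 to 0.944). Cyp4f39 stood at 2.11, 2.77 and 1.85 CPM in CKO nuclei of the Mageb18 state, against 0.478, 0.422 and 0.286 CPM in FLOX, on 38 UMIs. In the Pck1 state it stood at 5.62, 3.49 and 3.69 CPM in CKO, against 5.54, 6.30 and 8.91 CPM in FLOX. Its log2 fold changes were 2.42 ± 0.47 (SE) in the Mageb18, -0.80 ± 0.30 in the Pck1 and -0.23 in the Gabrr2 state, with a joint adjusted p of 0.0307. None of these passed the threshold in a single state either (edgeR adjusted p of 0.119 to 0.807). Neither call held when the P450 genes were taken out of the clustering, and both were lost without CKO 2, CKO 3, FLOX 1 or FLOX 2; without CKO 1 both held, and without FLOX 3 only Cyp27a1 did.

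**Figure D5:**
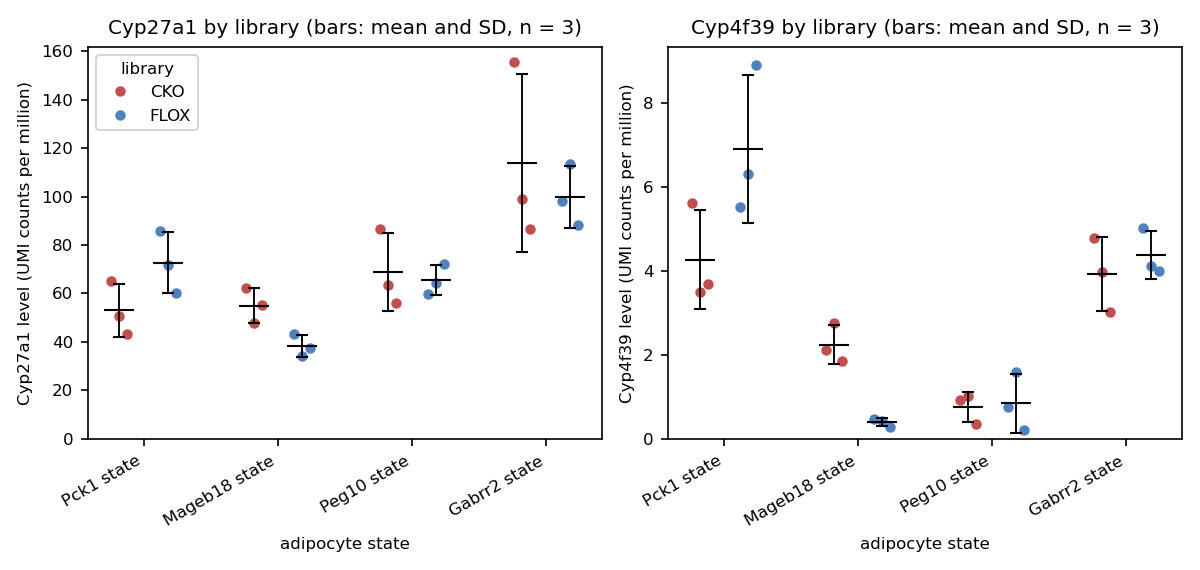
Levels of Cyp27a1 (left) and Cyp4f39 (right) in each library (y axes, CPM), CKO left and FLOX right of each tick, in the 4 adipocyte states; bars give the mean and SD of 3 libraries. For both genes the CKO libraries lie above the FLOX libraries in the Mageb18 state, while the CKO mean lies below the FLOX mean in the Pck1 state.

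Cyp7b1, which hydroxylates oxysterols and some steroids, was highest in mural-like nuclei outside the unnamed clusters, at 155, 187 and 127 CPM in CKO, against 199, 266 and 141 CPM in FLOX. ASPC-like nuclei had 7.49, 42.9 and 22.5 CPM in CKO, against 31.1, 36.3 and 28.7 CPM in FLOX. The groups overlapped in both. Macrophage-like nuclei had 116, 0.793 and 7.35 CPM in CKO, against 0.675, 0.907 and 5.30 CPM in FLOX, the largest fold change of any member in a class (log2 fold change 4.37, adjusted p = 0.451). It came from CKO 1 alone: without it the log2 fold change was 1.01 (adjusted p = 0.828). Of the Cyp7b1 UMIs of CKO 1, 269 lay in 20 of the 140 nuclei of the macrophage cluster led by Fcrls, and 213 of them in the 5 highest nuclei; 19 of the 20 also had a UMI of Flt3 or Zbtb46, markers of dendritic cells. A UMI of either marker was found in 39.3% of the CKO 1 nuclei of that cluster and in 14.6% to 19.4% of those of the other libraries. In the macrophage cluster led by F13a1 it was found in 14.9% to 21.0% of nuclei, with at most 1 Cyp7b1 UMI per library. Dendritic-like nuclei held 0.716% of all Cyp7b1 UMIs in kept nuclei. The identity of the 20 nuclei was not tested. Over the whole tissue Cyp7b1 stood at 15.7, 14.2 and 13.2 CPM in CKO, against 9.68, 10.6 and 8.71 CPM in FLOX, with no overlap (log2 fold change 0.49, adjusted p = 0.0685). In endothelial-like nuclei it stood at 26.5, 26.2 and 15.8 CPM in CKO, against 25.0, 12.5 and 9.51 CPM in FLOX (log2 fold change 0.51, adjusted p = 0.787).

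Cyp39a1, which hydroxylates an oxysterol of brain origin, stood at 46.4, 56.5 and 47.0 CPM in CKO ASPC-like nuclei, against 37.0, 39.3 and 42.9 CPM in FLOX. The groups did not overlap, but the log2 fold change of 0.33 had an adjusted p of 0.302. Over the whole tissue Cyp39a1 stood at 14.6, 16.2 and 13.3 CPM in CKO, against 9.18, 8.11 and 10.6 CPM in FLOX, also without overlap (log2 fold change 0.58, adjusted p = 0.0649). B-cell-like nuclei, whose share was larger in CKO, had 15.3 to 37.1 CPM over the 6 libraries. They held 10.3% of its UMIs, against 58.1% in ASPC-like nuclei. The part of class shares and of levels within classes in the whole-tissue value was not tested. Cyp46a1, the neuronal cholesterol hydroxylase, was at 4.07, 4.25 and 4.42 CPM in CKO ASPC-like nuclei, against 2.67, 4.35 and 4.75 CPM in FLOX.

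Of the members of other pathways, Cyp26b1, which clears retinoic acid, stood at 21.0, 48.8 and 48.3 CPM in CKO ASPC-like nuclei, against 33.9, 39.0 and 42.1 CPM in FLOX. CKO 1 was lowest and the groups overlapped (adjusted p = 0.977). Mural-like nuclei had 49.2, 60.1 and 23.6 CPM of Cyp26b1 in CKO, against 9.39, 78.7 and 0 CPM in FLOX, on 60 UMIs (adjusted p = 0.992). Its relative Cyp26c1 was at 0.336 to 0.453 CPM in CKO and 0.368 to 0.457 CPM in FLOX whole tissue. Cyp2r1, a vitamin D hydroxylase, stood at 25.1, 23.2 and 31.0 CPM in CKO B-cell-like nuclei, against 19.1, 14.8 and 20.8 CPM in FLOX (adjusted p = 0.763). In adipocyte-like nuclei Cyp2r1 stood at 2.79, 2.88 and 2.08 CPM in CKO, against 3.78, 4.19 and 4.16 CPM in FLOX, with no overlap and an adjusted p of 0.0782. Cyp11a1, which starts steroid synthesis from cholesterol, had 63 UMIs in kept nuclei and passed the filter on low counts in no class.

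Among the poorly characterised members, Cyp2ab1 was a gene of macrophage-like and monocyte-like nuclei. Macrophage-like nuclei had 52.0, 38.6 and 54.0 CPM in CKO, against 24.2, 32.1 and 32.8 CPM in FLOX. Every CKO library lay above every FLOX library, with a log2 fold change of 0.71 and an adjusted p of 0.0681. Endothelial-like nuclei had 5.58, 8.44 and 3.65 CPM of Cyp2ab1 in CKO, against 7.76, 9.07 and 9.51 CPM in FLOX (adjusted p = 0.808). Cyp20a1 stood at 148, 187 and 193 CPM in CKO mural-like nuclei, against 161, 183 and 129 CPM in FLOX, and at 70.4 to 79.8 CPM in CKO and 71.7 to 81.1 CPM in FLOX ASPC-like nuclei. In T/NK-cell-like nuclei Cyp20a1 stood at 23.2, 34.3 and 28.6 CPM in CKO, against 42.3, 59.7 and 32.2 CPM in FLOX (log2 fold change -0.62, adjusted p = 0.257). In the Gabrr2 state its log2 fold change was -0.50 ± 0.15 (SE, adjusted p = 0.174), with every CKO library below every FLOX library. Cyp2s1 had 269 UMIs in kept nuclei, of which macrophage-like nuclei held 27.5%, T/NK-cell-like 26.0% and dendritic-like nuclei 5.20%. In dendritic-like nuclei Cyp2s1 stood, on few UMIs, at 1.81, 22.9 and 8.25 CPM in CKO, against 22.2, 35.8 and 4.36 CPM in FLOX, which overlapped.

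No member passed the edgeR test in the remaining comparisons. In ASPC-like nuclei 0 of 22 members did, and 0 by DESeq2, where 0.284% of all genes were called. An unadjusted p under 0.05 was found there for 6 members and for 11.1% of all genes. In macrophage-like nuclei 0 of 15 did, and 1 by DESeq2 (Cyp2ab1), against 1.51% of all genes. An unadjusted p under 0.05 was found there for 5 members and for 14.6% of all genes. In endothelial-like nuclei 0 of 14 did, and 0 by DESeq2, against 0.0761% of all genes. An unadjusted p under 0.05 was found there for 0 members and for 8.14% of all genes. DESeq2 was run in these classes, in adipocyte-like nuclei and in whole tissue. The shares of all genes are those of edgeR, and none is given for DESeq2. In mural-like nuclei 0 of 6 members were called (0% of all genes) and in monocyte-like nuclei 0 of 4 (0.0624%). In dendritic-like nuclei 0 of 1 (0%) and in B-cell-like nuclei 0 of 9 (0.161%) were called. Each class had 0 members at an unadjusted p under 0.05, beside 4.56%, 5.31%, 7.3% and 9.13% of all genes in turn. Among the states, 0 of 16 members were called in the Pck1 state (0.12% of all genes). It was 0 of 13 in the Peg10 state (0.177%) and 0 of 15 in the Gabrr2 state (0.606%). An unadjusted p under 0.05 was found in these states for 5, 2 and 4 members, and for 13.9%, 11.7% and 12.1% of all genes. The shares of members called were near those of all genes in most of these comparisons. The median log2 fold change of the members was -0.00 in whole tissue, -0.01 in adipocyte-like and 0.08 in ASPC-like nuclei, beside 0.01 for all genes tested in each.

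Genes that serve or neighbour the P450 reactions were read from 10 lists in the same fits. In adipocyte-like nuclei 2 of 98 list genes rose and 1 fell in CKO, where 2.57% of all genes were called. Hsd3b7, an enzyme of bile acid synthesis that acts after Cyp7a1 and Cyp7b1, stood at 29.2, 31.0 and 29.8 CPM in CKO, against 19.3, 20.3 and 18.1 CPM in FLOX (log2 fold change 0.56, adjusted p = 0.0249). Gstt1, a glutathione transferase of phase II conjugation, stood at 49.3, 47.7 and 42.2 CPM in CKO, against 31.1, 28.5 and 30.8 CPM in FLOX (log2 fold change 0.55, adjusted p = 0.0291). Nr3c2, the mineralocorticoid receptor, stood at 334, 344 and 298 CPM in CKO, against 442, 428 and 385 CPM in FLOX (log2 fold change -0.44, adjusted p = 0.0429). None of these 3 genes overlapped between the genotypes; with a library left out, Hsd3b7 and Gstt1 were called in 2 of 6 rounds each and Nr3c2 in 0 of 6. In ASPC-like nuclei 1 of 97 list genes changed, where 0.284% of all genes did. Ephx2, the soluble epoxide hydrolase that breaks down P450 epoxides, fell to 11.6, 15.1 and 13.8 CPM in CKO, against 27.6, 24.6 and 24.8 CPM in FLOX (log2 fold change -0.93, adjusted p = 0.0305), and was called in 1 of 6 rounds with a library left out. The other lists, of P450 redox partners, heme synthesis, xenobiotic receptors, retinoid metabolism, vitamin D and ketone metabolism, had no called gene in these classes by edgeR, and of all lists 29 genes in adipocyte-like and 11 in ASPC-like nuclei had an unadjusted p under 0.05, as did 22.9% and 11.1% of all genes there. In whole tissue 0 of 111 list genes were called by edgeR, with 28 at an unadjusted p under 0.05 (28.4% of all genes had one). By DESeq2 19 were called, a count without a share of all genes beside it. Por, the reductase that feeds microsomal P450 enzymes, stood at 562, 737 and 787 CPM in CKO whole tissue, against 707, 637 and 714 CPM in FLOX, which overlapped.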

How the data were processed

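Single-nucleus RNA libraries of subcutaneous fat from 3 CKO and 3 FLOX samples were analysed. The deposited values are raw UMI counts per gene and barcode, made by the authors with Cell Ranger 7.1 per the file headers; the submitters' processing notes list the builds mm10 and GRCh38. Gene coordinates come from GENCODE vM21 on mm10, and promoters from RefSeq GRCm38.p6. The P450 genes, the gene lists, the marker lists and the named genes were chosen with earlier results of these data known.

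A barcode was kept when it had 500 or more detected genes and no more than 5% of its UMIs from mitochondrial genes. Doublets were removed with Scrublet in scanpy 1.11.5 at a rate of 0.8% per 1000 barcodes (818 to 983 per library). Nuclei were clustered on 3000 variable genes and 40 components with 20 neighbours (Leiden, resolution 1), which gave 33 clusters. A cluster was named from a marker list when at least 3 markers and 50% of the list were 2-fold above the other nuclei (5 CPM added), and with no other list at 33%. The 4 adipocyte states are called by a leading gene each.

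Counts were summed per library and class, using classes that had 20 or more nuclei in every library, and tested with edgeR 4.0.16 (TMM scaling, low counts filtered, quasi-likelihood test) in R 4.3.3. P-values were adjusted by Benjamini-Hochberg over all genes of a comparison, at a threshold of 0.05. Genotype by state and by class were tested as interactions. The code was tested on simulated counts. Members named with values were those called in any comparison, the 5 of highest mean CPM in whole tissue and in the adipocyte-like, ASPC-like, macrophage-like and endothelial-like classes, and in each class the 2 of largest fold change not called. Other members named to complete a role group were chosen after their values were seen. DESeq2 1.42.0 was an alternative, and the other alternatives are described with their effects. Confidence intervals were not computed for sums of counts, since the spread between libraries is given.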

Additional observations from a re-analysis of the deposited data

Results flagged for a closer look

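The genotype difference of Cyp27a1 differed between the 4 adipocyte states by the interaction test (edgeR adjusted p = 0.0369): the log2 fold change was 0.48 in the Mageb18 state, where CKO was higher in 3 of 3 libraries, and -0.48 in the Pck1 state, where the groups overlapped. That of Cyp4f39 also differed between states (edgeR adjusted p = 0.0307), with a log2 fold change of 2.42 in the Mageb18 state on 38 UMIs and -0.80 in the Pck1 state. For neither gene did a fold change in a single state pass the threshold. Neither call held when the P450 genes were left out of the clustering. Both were also lost without CKO 2, CKO 3, FLOX 1 or FLOX 2.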

How the results depend on the processing

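Counts of P450 genes called were small and moved with the processing. Shares of all genes called are given for the main fit alone. Counts under other settings therefore cannot be set against such a share. In whole tissue, 1 member was called, against 7 with DESeq2, 0 with scaling by library totals, 2 with no filter on low counts, 3 with the replicate number as a block and 0 to 5 with a library left out (5 without CKO 2). In adipocyte-like nuclei, 1 was called, against 3 with DESeq2, 0 at Leiden resolution 2, 0 with the trend on gene span removed, 0 with the Cst6-led cluster added (chosen after seeing the data) and 0 to 3 with a library left out (3 without CKO 1, 1 without FLOX 3). In macrophage-like nuclei, 0 were called, against 1 with DESeq2, 2 with no filter and 0 to 1 with a library left out (1 without CKO 2). Over the other classes 1 was called, and 0 to 1 with a library left out. Over the 4 states 1 was called, and 1 to 4 with a library left out (4 without CKO 1). For the difference of adipocyte-like from ASPC-like nuclei 0 were called, and 0 to 1 with a library left out (1 without FLOX 3). Between states 2 were called, against 0 when the P450 genes were left out of the clustering (chosen after seeing the data), 1 with library totals and 0 to 2 with a library left out. The cause was not tested. In ASPC-like and endothelial-like nuclei the count was 0 in all settings. The ASPC-like class was not the same set of nuclei in all of them. Its cluster led by Pde11a was unnamed at Leiden resolution 2 (3389 nuclei) and in the clustering without the P450 genes (4344 nuclei). Those nuclei were thus outside the class in these settings.

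Of 234 alternative values for 23 named fold changes, 210 kept direction and call, 21 lost the call, 2 gained it and 1 turned. The 1 that turned was Cyp27a1 in dendritic-like nuclei, at 0.44 without FLOX 1 (range -0.46 to 0.44 with a library left out). Most of the 23 were not called in the main fit, and staying uncalled counts as kept. Of those called, Cyp2e1 held in 7 of 17 settings in adipocyte-like nuclei and 9 of 9 in the Mageb18 state, main fit included. Cyp4f16 in T/NK-cell-like nuclei held in 3 of 8 and Cyp4v3 in whole tissue in 7 of 13. The calls between states are not among the 23. The labels do not say whether replicate numbers pair the samples. Departures of genes from the mean of their genotype correlated at -0.04, 0.26 and 0.02 between same-numbered libraries in whole tissue. These are not correlations of whole expression profiles. By this measure CKO 1 correlated best with FLOX 3, and CKO 2 with FLOX 2, in whole tissue and adipocyte-like nuclei. So few correlations cannot show whether same-numbered samples shared a litter or day. With the replicate block, 3 members were called in whole tissue (Cyp4b1, Cyp4v3, Cyp4f18) and 1 in adipocyte-like nuclei, Cyp4v3 in place of Cyp2e1. The same change of the called gene was seen there with no filter on low counts and in nuclei of 3000 to 8000 UMIs. CKO libraries had fewer UMIs, and members with few UMIs were tested in few classes.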
